A study of Bos taurus with 8 samples.

Results

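Genes of the nuclear pore, and of the receptors and cofactors that carry cargo through it, were followed in bovine 2-cell embryos. Members were chosen by their symbol in the platform annotation of the array: the numbered NUP, KPNA, IPO, XPO, TNPO and RANBP genes, with KPNB1, CSE1L, NXF1, NXT1, NUTF2, TPR, AAAS and SEH1L. This gave 88 probes of 55 genes, out of 43794 probes and 15212 named genes on the array. Signal was above background often enough to test 85 of these probes, and they covered all 55 genes, while 1 probe each of NUP37, NUP85 and KPNA2 was not tested. By role, 23 genes (37 probes) build the pore, 18 (28 probes) are importins, 7 (10 probes) are exportins, and 7 (13 probes) belong to the Ran cycle, to mRNA export or to other Ran-binding proteins. RAN, RANGAP1, RCC1, POM121, NDC1 and IPO5 were not analysed here, so the Ran GTPase itself has no value below.

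The embryos came from oocytes of slaughterhouse Holstein ovaries, matured and fertilized in vitro with a frozen mixture of semen. They were collected as 2-cell embryos at 29.5 hours post-fertilization (hpf), the fast group, or at 46 hpf, the slow group. Both RNAs were amplified and put on the same array, on 8 two-colour arrays in all. The labels count 4 biological replicates, each on a pair of arrays with exchanged dyes. Time of collection and speed of cleavage cannot be told apart in this design, the size of each embryo pool is not known here, and p-values measure the spread between the 4 labelled replicates. Every ratio is on the log2 scale with 29.5 hpf on top, positive where signal was higher at 29.5 hpf, and a gene is represented by its brightest tested probe. The collection at the 2-cell stage sets the number of blastomeres per embryo in both groups, but for other cells that may remain, fewer cells and less RNA per cell cannot be told apart in whole-embryo RNA.

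Over the whole array 32989 probes were tested, of which 206 were higher and 175 lower at 29.5 hpf (limma, adjusted p under 0.05). Median raw Cy5 signal ranged over the arrays from 152.1 to 343.8, and median raw Cy3 signal from 128.5 to 195.7. The 13 oocyte and early embryo markers on the array were above background in every channel, and 1 of them was called. Of the 12 cumulus and granulosa markers, 4 were above background in every channel, 8 were tested and 0 were called, and of the 8 sperm markers 2 were tested and 0 called, SPATA18 being above background in every channel, PRM2 on 4 of 8 arrays at 29.5 hpf and 7 of 8 at 46 hpf, and the rest on at most 2 of 8 in either group. Replicate numbers 1 and 2 did not pair the arrays: the ratios of the arrays numbered 1 correlated at 0.04 across probes and those numbered 2 at 0.05, while the correlation was 0.67 between number 1 with 29.5 hpf in Cy5 and number 2 with 46 hpf in Cy5, and 0.52 for the reverse combination. Means are the same under either numbering, but replicate values, SDs and p-values are not. If arrays that correlate hold the same sample, labelled values 1 and 2 are not independent, and the labelled p-values do not allow for this. Replicate values, SDs and p-values are given below for the labelled numbering, as are statements on overlap, and each call is given under both. The share of all genes without overlap between the groups was not counted, so lack of overlap is given as description only.

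The nuclear pore is a channel through the nuclear envelope, built from rings of scaffold nucleoporins and lined by nucleoporins with phenylalanine-glycine repeats that form its barrier. Importins bind cargo in the cytoplasm and release it in the nucleus when they meet Ran loaded with GTP, and exportins bind cargo together with that form of Ran. Before the bovine embryonic genome becomes fully active, the cleaving embryo lives largely on transcripts and proteins laid down in the oocyte, and pores and transport receptors have to serve new nuclei after each division.

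With arrays averaged by their labelled number, XPO1 and TPR rose at 29.5 hpf and KPNA3 fell, by limma at an adjusted p under 0.05, and these were the 3 calls among the 55 genes. With numbers 1 and 2 exchanged, the combination in which the arrays correlated, none of the 3 passed, with limma adjusted p of 0.0591, 0.107 and 0.0939. Over all 12629 genes tested, 113 (0.895%) were called higher and 73 (0.578%) lower. At an unadjusted p under 0.05, 17 members (30.9%) were higher, against 9.17% of all genes, and 5 (9.09%) were lower, against 10.1% of all genes, which is close to the background. All 4 replicate values were above 0 in 18 members (32.7%), against 13.0% of all genes, and below 0 in 4 members (7.27%), against 13.8% of all genes. The median ratio was 0.064 over the members and -0.0050 over all genes. By family the median was 0.26 over the pore genes, -0.01 over the importins and 0.21 over the exportins, as the plot of all members by class shows. These medians depend on the normalization, since centring each array on its median in place of loess moved the median of all genes to -0.10, that of the pore genes to 0.0013, that of the importins to -0.13 and that of the exportins to -0.0041. Relative to all genes the pore median was then 0.10 higher, against 0.27 after loess.

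**Figure D1:**
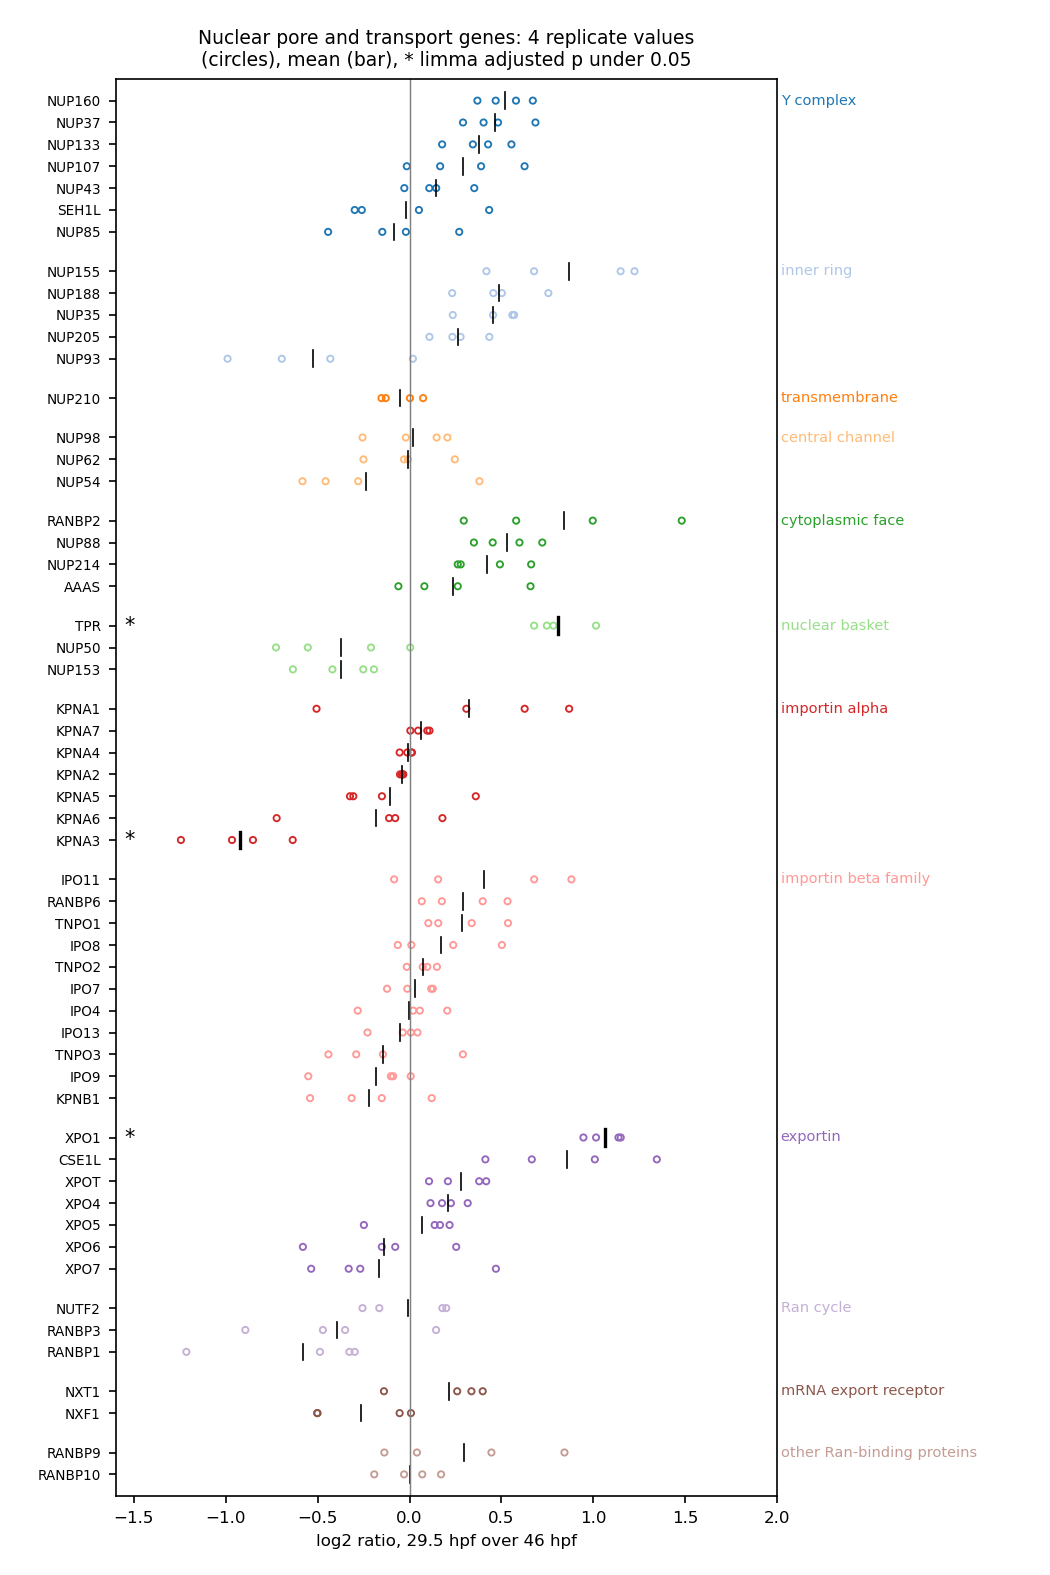
Log2 ratio of 29.5 hpf over 46 hpf (x axis) for the brightest tested probe of each of the 55 genes, grouped by class from the Y complex at the top to other Ran-binding proteins at the bottom. Circles are the 4 labelled replicates, bars are means, and an asterisk marks XPO1, TPR and KPNA3, the genes with a limma adjusted p under 0.05 in the labelled pairing, none of which passed in the exchanged one. The inner ring and cytoplasmic face lie mostly right of 0, and the importins lie around it.

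Among the 23 pore genes, 1 was called higher and 0 lower, where 0.895% and 0.578% of all genes were. At an unadjusted p under 0.05, 11 (47.8%) were higher and 3 (13.0%) lower, against 9.17% and 10.1% of all genes. The median of the pore genes was 0.26, 0.17, 0.39 and 0.38 in replicates 1 to 4. The called gene was TPR, the large coiled-coil protein of the nuclear basket, which projects from the pore into the nucleus. Its normalized log2 signal was 11.89, 11.87, 11.86 and 11.47 at 29.5 hpf, against 11.21, 11.09, 10.84 and 10.72 at 46 hpf. All 29.5 hpf values lay above all 46 hpf values. TPR rose by a log2 ratio of 0.81 ± 0.15 (SD, n = 4; 95% interval 0.61 to 1.00), or 1.75-fold, with a limma adjusted p of 0.0335 in the labelled pairing and 0.107 in the exchanged one. It is measured by 1 probe.

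The other basket genes lay on the opposite side of 0. NUP153, the basket nucleoporin that anchors TPR and binds importins, had signals of 13.71, 13.73, 13.38 and 13.79 at 29.5 hpf, against 13.96, 13.93, 14.02 and 14.21 at 46 hpf, without overlap. Its ratio was -0.37 ± 0.20 (SD, n = 4) and did not pass (limma adjusted p = 0.129), and its other probes gave -0.38 and -0.10. NUP50, a mobile nucleoporin that helps to release cargo from importin alpha, had a ratio of -0.37 ± 0.33 (SD, n = 4; limma adjusted p = 0.263). The negative ratio of NUP50 came from replicates 2, 3 and 4, with -0.21, -0.73 and -0.55, and replicate 1 was at 0.0039. In the exchanged pairing replicates 1 and 2 of NUP50 were at -0.22 and 0.011.

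The cytoplasmic face of the pore, where filaments receive imported cargo and dismantle exported complexes, held 4 genes, all with ratios above 0. At an unadjusted p under 0.05, 3 of them were higher, against 9.17% of all genes, and 0 were called by limma. RANBP2, the giant filament protein also known as NUP358, had signals of 12.25, 12.00, 12.91 and 12.42 at 29.5 hpf, against 11.67, 11.70, 11.43 and 11.42 at 46 hpf. The groups did not overlap, but the replicate ratios ranged from 0.30 in replicate 2 to 1.48 in replicate 3, so that the mean of 0.84 ± 0.52 (SD, n = 4) did not pass (limma adjusted p = 0.121). The other probes of RANBP2 gave 0.82 and 0.52. NUP88, a scaffold of the filaments, had signals between 14.97 and 15.06 at 29.5 hpf, against 14.33 to 14.62 at 46 hpf, again without overlap. Its ratio was 0.53 ± 0.16 (SD, n = 4; limma adjusted p = 0.0585 in the labelled and 0.126 in the exchanged pairing). The NUP88 probe reached 48.6% to 91.5% of the highest probe signal of the same array and channel, and whether signal near that top is compressed was not tested. NUP214, the partner of NUP88 and a docking site for exportin complexes, had a ratio of 0.42 ± 0.19 (SD, n = 4; limma adjusted p = 0.0987), with 0.38 and 0.96 for its other probes. The exchanged pairing gave NUP214 an SD of 0.36 and a limma adjusted p of 0.350, with replicate 2 at -0.10. AAAS, the WD-repeat protein ALADIN, was at 0.24 ± 0.31 (SD, n = 4).

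The inner ring anchors the pore in the membrane and held 5 genes. NUP155, which contacts the membrane, had signals of 13.23, 13.34, 13.71 and 13.46 at 29.5 hpf, against 12.81, 12.66, 12.48 and 12.31 at 46 hpf. The groups did not overlap, and the difference was larger in replicates 3 and 4 (1.22 and 1.15) than in replicates 1 and 2 (0.42 and 0.68). The mean was 0.87 ± 0.38 (SD, n = 4) and did not pass (limma adjusted p = 0.0719 in the labelled and 0.139 in the exchanged pairing). NUP35, a membrane-binding linker, had replicate ratios of 0.57, 0.45, 0.24 and 0.56. The mean of NUP35 was 0.45 ± 0.16 (SD, n = 4; limma adjusted p = 0.0719 in the labelled and 0.150 in the exchanged pairing). The large scaffold proteins NUP188 and NUP205 are structural relatives. They had ratios of 0.49 ± 0.21 (limma adjusted p = 0.0880) and 0.26 ± 0.13 (limma adjusted p = 0.170; SD, n = 4 each), and NUP205 was at -0.05 with median centring. With exchanged numbers the limma adjusted p was 0.144 for NUP188 and 0.503 for NUP205. The SD of NUP205 was then 0.30, with replicate 2 at -0.07. NUP93, the hub that binds both of them, differed from the rest of the ring, and it was picked out after its values were seen. Its signals were 11.14, 11.02, 10.97 and 10.73 at 29.5 hpf, against 11.12, 11.45, 11.67 and 11.72 at 46 hpf. The mean was -0.52 ± 0.43 (SD, n = 4; limma adjusted p = 0.212). Labelled replicate 1 of NUP93 was level at 0.02 and the others were lower, while in the exchanged pairing all 4 values were below 0, at -0.17, -0.24, -0.69 and -0.99.

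**Figure D2:**
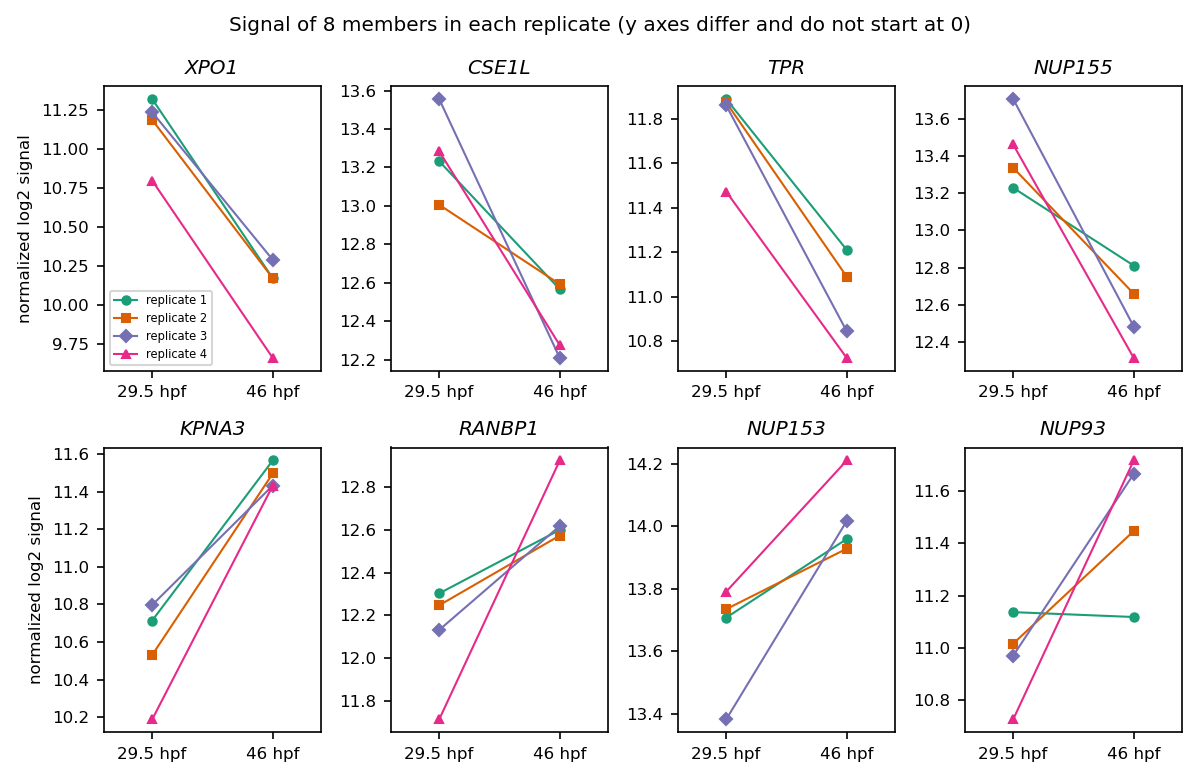
Normalized log2 signal (y axes, which differ between panels and do not start at 0) of 8 members at 29.5 hpf (left) and 46 hpf (right), with 1 line for each of the 4 labelled replicates. XPO1, CSE1L, TPR and NUP155 are higher at 29.5 hpf in all 4 replicates, KPNA3, RANBP1 and NUP153 are lower in all 4, and NUP93 is level in labelled replicate 1, though lower in all 4 under the exchanged pairing.

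The Y complex, the outer ring scaffold that is recruited early when pores form, held 7 genes, with a median of 0.29 and 0 limma calls. At an unadjusted p under 0.05, 3 genes were higher, against 9.17% of all genes. NUP160 was the uncalled member nearest to the threshold in the labelled pairing. Its signals were 11.53, 11.53, 11.42 and 11.63 at 29.5 hpf, against 11.16, 10.95, 10.95 and 10.96 at 46 hpf, without overlap. The ratio of NUP160 was 0.52 ± 0.13 (SD, n = 4; 95% interval 0.34 to 0.71). Its limma adjusted p was 0.0507 in the labelled pairing and 0.139 in the exchanged one. NUP37, a small subunit, was at 0.47 ± 0.17 (SD, n = 4; limma adjusted p = 0.0725 in the labelled and 0.218 in the exchanged pairing). The other tested probes of NUP37 gave 0.53 and 0.40. NUP133, which has a membrane-sensing motif, was at 0.38 ± 0.16 (SD, n = 4; limma adjusted p = 0.101). NUP107, the partner of NUP133 at the stem of the Y, had replicate ratios of -0.01, 0.17, 0.39 and 0.63, with a mean of 0.29 ± 0.28 (SD, n = 4; limma adjusted p = 0.306). NUP85, SEH1L and NUP43, which together form the short arm of the Y, had ratios of -0.08, -0.02 and 0.14. The other probes of NUP43 gave 0.20 and 0.38, and that of SEH1L -0.20. The median of the class was 0.0013 with median centring, where that of all genes was -0.10. Relative to all genes it was then 0.10 higher, against 0.30 after loess.

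The central channel and the membrane showed little. NUP62, the channel protein that gives its name to a repeat-bearing subcomplex, had signals of 12.31, 12.17, 12.00 and 11.96 at 29.5 hpf, against 12.06, 12.20, 12.01 and 12.21 at 46 hpf, which overlap. Its ratio was -0.01 ± 0.20 (SD, n = 4; 95% interval -0.24 to 0.22). NUP54, a partner of NUP62, was at -0.23 ± 0.43, and NUP98, a barrier protein with a further role in mRNA export, at 0.02 ± 0.21 (SD, n = 4 each). NUP210, a transmembrane glycoprotein of the pore membrane, was at -0.05 ± 0.11 (SD, n = 4), with -0.25 for its other probe. The limma adjusted p of these 4 genes lay between 0.585 and 0.976.

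Among the 18 importins, 0 were called higher and 1 lower, where 0.895% and 0.578% of all genes were. At an unadjusted p under 0.05, 2 genes (11.1%) were higher and 1 (5.56%) lower, against 9.17% and 10.1% of all genes, which is near or under those shares. The call was KPNA3, an importin alpha, the adaptor that binds classical nuclear localization signals and links them to importin beta. Its signals were 10.71, 10.53, 10.80 and 10.19 at 29.5 hpf, against 11.57, 11.50, 11.43 and 11.43 at 46 hpf. Every 29.5 hpf value lay below every 46 hpf value. KPNA3 fell to a log2 ratio of -0.92 ± 0.25 (SD, n = 4; 95% interval -1.20 to -0.65), with a limma adjusted p of 0.0404 in the labelled pairing and 0.0939 in the exchanged one. The ratio was -0.88, -1.08 and -0.86 within the arrays whose titles open with 140, 141 and 142. Title number and dye cannot be told apart for 141 and 142, which hold 1 dye orientation each. KPNA3 is measured by 1 probe.

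None of the other importin alphas was called. KPNA4, its closest relative, had signals between 7.45 and 7.58 at 29.5 hpf, against 7.44 to 7.62 at 46 hpf, and a ratio of -0.01 ± 0.03 (SD, n = 4). That probe was above background on 6 of 8 arrays at 29.5 hpf and on 5 of 8 at 46 hpf, so its ratio says little. KPNA7, an importin alpha of oocytes and early embryos, had signals of 15.15, 15.19, 15.21 and 15.18 at 29.5 hpf, against 15.15, 15.09, 15.10 and 15.13 at 46 hpf. Its ratio was 0.06 ± 0.05, that of KPNA2 was -0.04 ± 0.01 (SD, n = 4 each), and neither passed. In the exchanged pairing the SD was 0.03 for KPNA7 and 0.09 for KPNA2. These probes sat near the top of the scale, at 83.9% to 94.9% of the highest probe signal of the same array and channel for KPNA7 and at 80.6% to 93.8% for KPNA2. The files hold no saturation mark, so a change there may not be measurable. The dimmer probes of KPNA7 gave -0.10 ± 0.19 and -0.18 ± 0.23 (SD, n = 4 each).

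KPNA1 had replicate ratios of 0.63, 0.31, 0.87 and -0.51, with a mean of 0.32 ± 0.60 (SD, n = 4), and its other probes gave -0.39 (unadjusted p = 0.0475, limma adjusted p = 0.299) and 0.03. Replicate 4 thus ran against the other replicates of KPNA1, and its probes disagreed in sign. KPNA6 was at -0.18 ± 0.38 and KPNA5 at -0.10 ± 0.32 (SD, n = 4 each). Apart from KPNA3, the limma adjusted p of the importin alphas was between 0.578 and 0.955.

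KPNB1, importin beta itself, carries the importin alpha and cargo pair through the pore. Its signals were 10.01, 9.87, 10.09 and 9.94 at 29.5 hpf, against 9.88, 10.02, 10.63 and 10.26 at 46 hpf, which overlap. KPNB1 had a ratio of -0.22 ± 0.28 (SD, n = 4; limma adjusted p = 0.445). TNPO1, the receptor for proline-tyrosine signals of RNA-binding proteins, had a ratio of 0.28 ± 0.20 (SD, n = 4; limma adjusted p = 0.216), above 0 on all 8 arrays, and -0.02 with median centring. IPO11 was at 0.41 ± 0.45 and RANBP6, a relative of IPO5, at 0.29 ± 0.21 (SD, n = 4 each). The other 7 importin beta relatives, IPO4, IPO7, IPO8, IPO9, IPO13, TNPO2 and TNPO3, lay between -0.18 and 0.17.

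Exportins held the largest ratio of all 55 genes. XPO1, or CRM1, exports proteins with leucine-rich export signals and is the target of leptomycin B. Its signals were 11.32, 11.19, 11.24 and 10.80 at 29.5 hpf, against 10.17, 10.17, 10.29 and 9.66 at 46 hpf. Every 29.5 hpf value lay above every 46 hpf value. XPO1 rose by 1.06 ± 0.10 (SD, n = 4; 95% interval 0.90 to 1.23), or 2.09-fold, with a limma adjusted p of 0.0227 in the labelled pairing and 0.0591 in the exchanged one. The ratio was 1.09, 0.92 and 1.13 within the arrays whose titles open with 140, 141 and 142. A second probe of XPO1 gave 0.82 ± 0.28 (limma adjusted p = 0.0515) and the third, the dimmest, 0.16 ± 0.28 (limma adjusted p = 0.615; SD, n = 4 each), so the size of the rise depends on the probe.

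CSE1L, the exportin that returns importin alpha to the cytoplasm, had signals of 13.23, 13.01, 13.56 and 13.28 at 29.5 hpf, against 12.57, 12.59, 12.21 and 12.28 at 46 hpf. The groups did not overlap, and the ratio was 0.86 ± 0.41 (SD, n = 4). It did not pass, with a limma adjusted p of 0.0787 in the labelled pairing and 0.166 in the exchanged one. XPOT, the tRNA exportin, was at 0.28 ± 0.15 (SD, n = 4; limma adjusted p = 0.166) and at -0.0041 with median centring. XPO4 was at 0.21 ± 0.09 (SD, n = 4; limma adjusted p = 0.197), with -0.01 for its other probe. XPO5, which exports precursors of microRNAs, and XPO6 and XPO7 had ratios of 0.07, -0.14 and -0.17. Of the 7 exportins 4 (57.1%) were thus higher and 0 lower at an unadjusted p under 0.05, against 9.17% and 10.1% of all genes. By limma 1 was called higher, where 0.895% of all genes were.

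The Ran cycle supplies the direction of transport, and its measured members had ratios below 0 without a call. RANBP1, which helps RanGAP to dismantle export complexes in the cytoplasm, had signals of 12.30, 12.25, 12.13 and 11.71 at 29.5 hpf, against 12.60, 12.57, 12.62 and 12.93 at 46 hpf. The groups did not overlap, but replicate 4 gave -1.21 and the others -0.30, -0.33 and -0.49. The mean of RANBP1 was -0.58 ± 0.43 (SD, n = 4; limma adjusted p = 0.176). RANBP3, a cofactor of XPO1, was at -0.39 ± 0.43 (SD, n = 4), with 0.07 for its other probe. NUTF2, the carrier that brings Ran back into the nucleus, was at -0.01 ± 0.23 (SD, n = 4; 95% interval -0.27 to 0.25).

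The mRNA export receptor is a pair of NXF1 and NXT1. NXF1 was at -0.26 ± 0.28 (SD, n = 4; limma adjusted p = 0.357) and NXT1 at 0.21 ± 0.24 (SD, n = 4; limma adjusted p = 0.408), with 0.10 for the other probe of NXT1. RANBP9 and RANBP10, which are components of a ubiquitin ligase rather than transport receptors, were at 0.30 ± 0.44 and 0.01 ± 0.15 (SD, n = 4 each). None of these genes passed.

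Of the 55 genes, 38 had a single tested probe and 17 had several. Among the 17, all probes had 1 sign in 10 genes and opposite signs in 7, as the plot of genes with several probes shows. NUP37, RANBP2, NUP214, NUP43, IPO11, NXT1 and XPO1 were above 0 by every probe, and NUP153, NUP210 and SEH1L were below 0 by every probe. KPNA1, KPNA7, RANBP3, RANBP6, RANBP9, RANBP10 and XPO4 had probes on both sides.

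**Figure D3:**
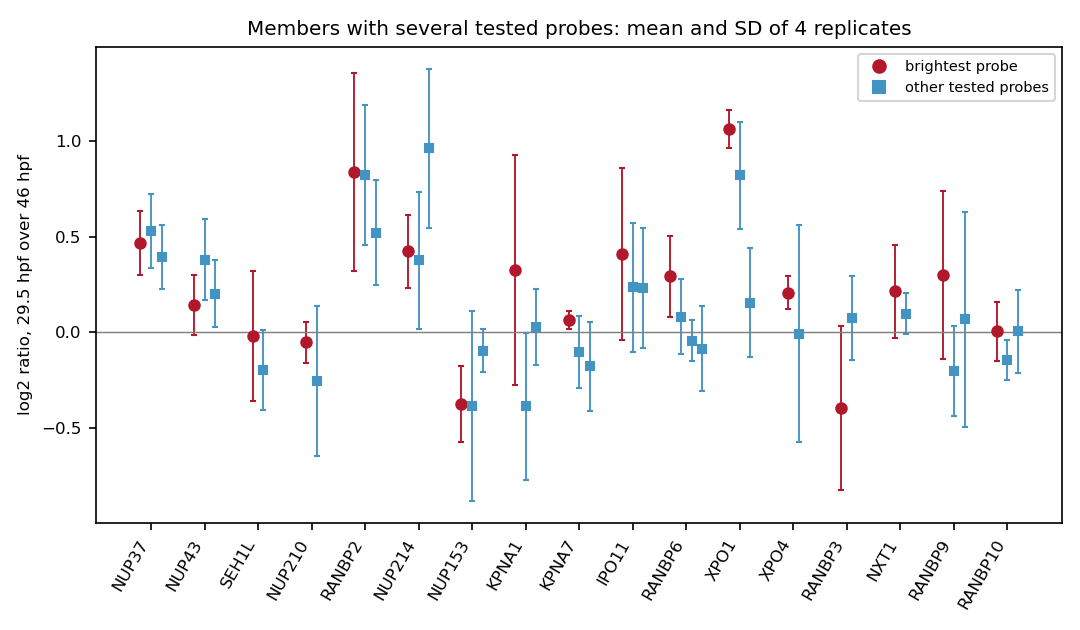
Log2 ratio of 29.5 hpf over 46 hpf (y axis) for each tested probe of the 17 members with several, as mean and SD of the 4 labelled replicates, with the brightest probe as a circle and the others as squares. RANBP2 lies between 0.52 and 0.84 by all 3 of its probes, XPO1 lies between 0.16 and 1.06, and KPNA1 has probes on both sides of 0.

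Single arrays gave the same direction for part of the members. The ratio was above 0 on all 8 arrays, in both dye orientations, for 11 members (20.0%), against 4.07% of all genes. These were XPO1, CSE1L, TPR, NUP155, NUP160, NUP188, NUP35, NUP88, NUP133, RANBP2 and TNPO1. It was below 0 on all 8 arrays for KPNA3 and RANBP1 (3.64% of the members), against 3.87% of all genes, which is close to the background.

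Calls depended on how arrays were combined. In the exchanged pairing, which swaps numbers 1 and 2 of 1 dye orientation, 0 members were called by limma and 2 of all genes were (0.0158%). An unadjusted p under 0.05 was then found for 21 members (38.2%), where 14.4% of all genes had one, and under the labelled numbers for 22 (40.0%), where 19.3% had one. With all 8 arrays in 1 limma fit and the labelled number as a replicate block, 9 members were called higher, where 2.27% of all genes were, and 1 lower, where 1.96% were. The 9 were XPO1, TPR, NUP160, NUP88, NUP155, NUP35, NUP188, NUP133 and CSE1L, and the lower one was KPNA3. Arrays that correlated across numbers 1 and 2 sat in different blocks of that fit, so its p-values may be too small. The exchanged number as the block, an alternative chosen after seeing the data, gave 8 higher, where 1.67% of all genes were, and KPNA3 lower, where 1.27% were. Median centring in place of loess gave 0 limma calls among members and 0 among all genes, with 18 members (32.7%) and 22.9% of all genes at an unadjusted p under 0.05. The authors' deposited log2 ratios gave 0 limma calls among members, 14 higher and 7 lower among all genes, and 15 members (27.3%) and 15.2% of all genes at an unadjusted p under 0.05.

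**Figure D4:**
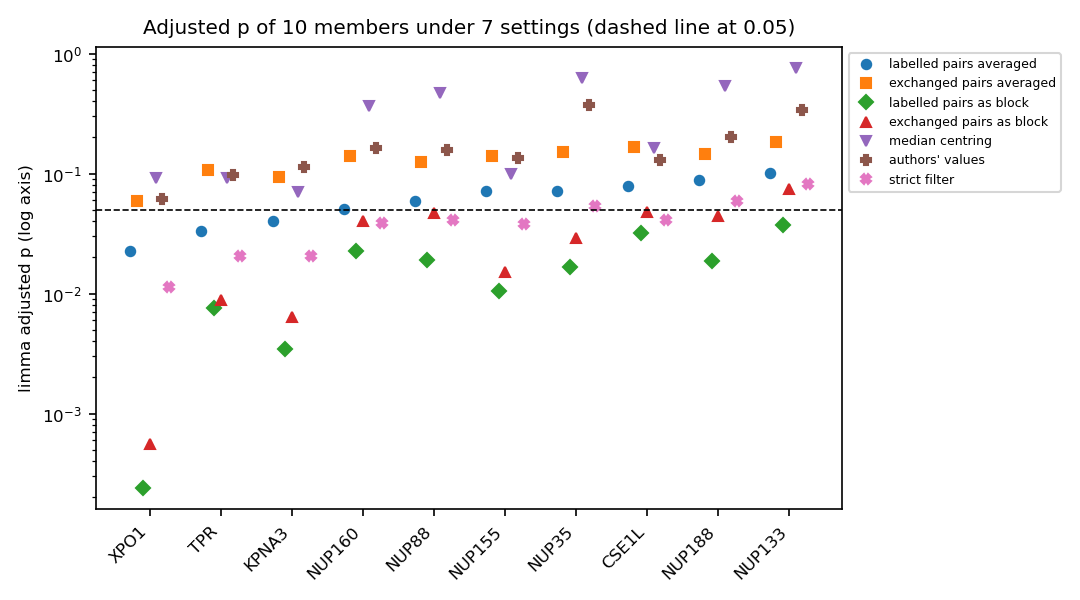
Limma adjusted p (y axis, logarithmic) of the 10 members called in the replicate block fit, under 7 ways of combining or normalizing the arrays, with a dashed line at 0.05. XPO1, TPR and KPNA3 lie under the line with labelled pairs averaged and with either block, and above it with exchanged pairs averaged, median centring or the authors' values.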

How the data were processed

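The deposited scanner files give, per the file headers, linear intensity values for each spot, the mean signal and the median local background at 532 nm (Cy3) and 635 nm (Cy5), not normalized by the authors. The value table deposited by the authors holds log2 ratios whose normalization and centring are not stated. Compared with the ratios of the scanner signals, its columns ran as 29.5 hpf over 46 hpf, with medians between -0.0151 and 0.0120, and it served as an alternative.

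Background was corrected by normexp (offset 50) and ratios by loess within arrays, with control spots and spots ignored by the image software at weight 0 (limma 3.58.1, R 4.3.3). Arrays with 46 hpf in Cy5 were turned in sign, and arrays of 1 labelled number were averaged. Testing required a signal more than 2 SD over the mean of the 153 negative control spots, on at least 4 of 8 arrays of 1 group, and 3 or more replicates. The mean was tested against 0 (lmFit, eBayes; two-sided), and p-values of 32989 probes were adjusted by Benjamini and Hochberg's method. Normalized signals are per channel after loess and Aquantile. The fit was tested on simulated data, drawn as independent replicates with each probe's SD under the labelled numbers. That simulation could not test the numbering itself.

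The numbering was checked by correlating deviations of same-numbered arrays from the mean of all arrays, which gave -0.28 and -0.19 for numbers 1 and 2 and 0.29 and 0.50 for numbers 3 and 4. Replicates with 1 and 2 exchanged gave 0.58 and 0.32. Probes were named from the platform annotation. Members, gene lists, settings and the exchanged pairing were chosen with earlier results of these data known. Genes named were the called ones, the 4 smallest p in each class, and a list of core factors, and the rest are given by range unless said.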

Additional observations from a re-analysis of the deposited data

How the results depend on the processing

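XPO1, TPR and KPNA3 kept their direction under all alternatives run and lost their call under many, some of which used fewer arrays. Their log2 ratios, in that order, were 1.06, 0.81 and -0.92 both with numbers 1 and 2 exchanged and with eBayes with trend and robust. They were 0.96, 0.72 and -1.01 on the arrays with 29.5 hpf in Cy5 alone, and 1.16, 0.89 and -0.84 on those with 46 hpf in Cy5 alone. They were 0.75, 0.49 and -1.24 with median centring, 1.14, 0.90 and -1.02 with scaling between arrays, and 1.14, 0.91 and -0.94 by the authors' values. Leaving out each replicate gave 1.03 to 1.10 for XPO1 (limma adjusted p = 0.0709 to 0.192), 0.74 to 0.85 for TPR (0.0828 to 0.192) and -1.02 to -0.82 for KPNA3 (0.0834 to 0.198). Within the arrays whose titles open with 141, XPO1 was at 0.92.

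Against 2 member genes called higher and 1 lower (2 and 1 of the probes), the counts were 0 and 0 under each of the 7 settings above and without any replicate, whether over members, probes or families. Replicate block gave 9 member genes higher (7 pore, 2 exportin; 11 probes) and 1 lower. No replicate block gave 12 higher and 2 lower, where 3.58% and 3.18% of all genes were (9 pore and 3 exportin higher, 1 pore lower; 18 and 2 probes). The number that opens the titles as a block gave 15 higher and 4 lower, where 6.03% and 6.13% of all genes were (10 pore, 1 importin and 4 exportin higher; 2 pore and 1 Ran cycle gene lower; 22 and 4 probes). The fits without a block and by title number ignore replicates, so their p-values do not measure the spread between replicates. The correlation within blocks was 0.21 for the labelled number, 0.48 for the exchanged number and -0.14 for the title number. The exchanged number as a block gave 8 higher (6 pore, 2 exportin; 10 probes). The strict filter gave 6 higher, where 2.89% of all genes were (4 pore, 2 exportin; 10 probes), no background correction, with 1.35% of all genes higher, gave 2 pore genes and 5 probes higher, and the mean of a gene's probes, with 0.784% higher, gave 4, 3 of them pore. Offset 16 and no filter on dim probes changed no member count. Of the other transport genes, 5 were higher and 2 lower with no replicate block, 6 and 3 with the title number as a block, 1 higher by the authors' values, and 0 higher under the other 6 of those settings and without any replicate.

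Some members turned in sign, among them XPOT, TNPO1 and NUP205, which were higher at an unadjusted p under 0.05 after loess. Median centring gave -0.0041 for XPOT, -0.21 for KPNA7, -0.021 for TNPO1, -0.10 for NXT1, -0.073 for RANBP10, -0.019 for NUP98 and -0.054 for NUP205. The median of all genes was then -0.10. XPOT, TNPO1, RANBP10, NUP98 and NUP205 stayed above that median, NXT1 was level with it and KPNA7 lay below it. The arrays with 29.5 hpf in Cy5 gave 0.072 for KPNA5, 0.042 for KPNA2 and 0.083 for NUTF2. Those with 46 hpf in Cy5 gave -0.046 for KPNA7, 0.024 for KPNA4, -0.046 for RANBP10 and 0.026 for NUP62. The mean of a gene's probes gave -0.010 for KPNA1, -0.071 for KPNA7 and -0.044 for RANBP10. The authors' values gave -0.27 for RANBP10, -0.17 for NUP98 and 0.043 for NUP62. No background correction gave 0.0012 for NUTF2 and -0.0038 for RANBP10, and scaling gave -0.0017 for RANBP10. Leaving out each replicate gave -0.019 to 0.0037 for KPNA4, -0.080 to 0.071 for NUTF2, -0.051 to 0.071 for RANBP10, -0.043 to 0.11 for NUP98 and -0.096 to 0.070 for NUP62. The cause of these changes was not tested. KPNA4 was near background on some arrays, and KPNA7 and KPNA2 near the top of the scale, where compression was not tested.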

Other observations

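A list of 45 further genes of nuclear transport and pore assembly held 42 with a probe, all tested. Of these, 2 were called higher at 29.5 hpf, where 0.895% of all genes were, and 0 lower by limma, 10 (23.8%) were higher and 7 (16.7%) lower at an unadjusted p under 0.05, against 9.17% and 10.1% of all genes, and the median was -0.06. POLDIP3, an mRNA export cofactor, had replicate ratios of 1.13, 1.01, 1.18 and 1.35 in the labelled pairing, and its SD was 0.51 in the exchanged one. It rose by 1.17 ± 0.14 (SD, n = 4; limma adjusted p = 0.0227 in the labelled and 0.137 in the exchanged pairing), but its other probes gave 0.17, 0.23 and -0.09. CETN3, a calcium-binding centrin of centrioles, rose by 0.85 ± 0.22 (SD, n = 4; limma adjusted p = 0.0404 in the labelled and 0.0811 in the exchanged pairing). HIKESHI, the carrier that imports HSP70 chaperones, was at 0.50 ± 0.15 and CHTOP, a cofactor of mRNA export, at 0.49 ± 0.23 (SD, n = 4 each), and neither passed. The other probes of HIKESHI gave 0.41 and 0.31, and that of CHTOP gave -0.15.

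The pore genes NUP58 and NUP42 fell outside the naming rule and were looked up after their values were seen. NUP58, listed under an older symbol and a partner of NUP62, had a ratio of -0.33 ± 0.17 (SD, n = 4; limma adjusted p = 0.143), with -0.09 and -0.32 for its other probes. NUP42, of the cytoplasmic face, was at -0.08 and -0.09 by its probes. AHCTF1, SEC13, RAE1 and GLE1 belong to the list above and were picked out after their values were seen. AHCTF1, which seeds pores on chromatin, had replicate ratios of 0.57, 0.23, 1.74 and 0.97, with 0.19 and 0.56 for its other probes. SEC13, a subunit of the Y complex, was at 0.29 ± 0.07 (SD, n = 4), with 0.54, 0.13 and 0.03 for its other probes. RAE1 and GLE1 lay on the other side of 0, at -0.37 ± 0.22 and -0.30 ± 0.20 (SD, n = 4 each). The other probes of RAE1 gave -0.08 and -0.03. None of these genes passed.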
